A study of Mus musculus with 32 samples.

Results

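The 9 genes of complement components, receptors and an inhibitor described here were chosen by symbol from the mouse gene tables: C1qa, C1qb, C1qc, C3, C4b, C3ar1, C5ar1, Itgam and Serping1. All 9 were found among the 22337 genes of the tables. RNA-seq libraries came from hippocampus, from meninges and from sorted meningeal lymphatic endothelial cells (mLECs) of mice that, by the study's methods, were male and 6 months of age. In each tissue the groups were WT mice, untreated 5xFAD mice and 5xFAD mice that received transcranial light (5xFAD+L), with 4, 4 and 4 hippocampus libraries, 4, 3 and 3 meninges libraries and 4, 3 and 3 mLEC libraries. The study asked whether light changes the brain and its meninges in 5xFAD mice. 5xFAD mice carry human transgenes with familial Alzheimer's disease mutations, expressed in neurons from a Thy1 promoter, and develop amyloid plaques early. The WT mice carry no transgene, and WT mice under light are not among the groups compared here. By the study's methods each library came from 1 mouse, and mLECs were gated as DAPI- CD45- CD31+ PDPN+ cells.

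Complement is a cascade of plasma and tissue proteins that tags targets and recruits phagocytes. In the classical pathway C1q, built from the chains of C1qa, C1qb and C1qc, binds a target such as amyloid or a synapse, and the attached proteases cleave C4 and then C3. Fragments of C3 and C5 act on the receptors C3aR and C5aR1, while C3 fragments deposited on a surface are bound by complement receptor 3, whose alpha chain CD11b is encoded by Itgam. Serping1 encodes C1 inhibitor, which blocks the C1 proteases. In the brain C1q is made mainly by microglia, and C4b is well known as a gene of reactive astrocytes and oligodendrocytes.

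C1qa, C1qc and C1qb lie beside each other on the minus strand within 18.7 kb (GRCm38, chr4:136880129-136898803). C3 (chr17:57203970-57228136, minus strand) and C4b (chr17:34728380-34743882, minus strand) share chromosome 17, and C5ar1 (chr7:16246743-16259540, minus strand) and Itgam (chr7:128062640-128118491, plus strand) share chromosome 7. C3ar1 lies at chr6:122847138-122856161 and Serping1 at chr2:84765387-84775444, both on the minus strand. All are protein-coding in GENCODE. C4b shares 35.2% of its 50-base words with C4a, its near-identical copy, which was not analysed here. Itgam shares 72.4% of its words with Gm49368, an overlapping gene model on the same strand, so the counts of C4b and Itgam depend on how such reads were divided. Gm49368 itself ran from 0.0 to 0.39 FPKM in hippocampus. In WT meninges it ran from 0.07 to 1.03, where Itgam ran from 0.93 to 2.46. The other 7 genes shared no such word with another gene.

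The RefSeq promoter table held 6 of the 9 genes: C1qb, C1qc, C3, C3ar1, C5ar1 and Itgam. C1qa, C4b and Serping1 were not matched. The 250 bases before the start are shown for a C1q chain, for the central component and for the receptor chain, because C1qb and Itgam followed each other closely across the hippocampus libraries and C3 was the member at the lowest level there. The sequences are on GRCm38.p6, 5′ to 3′ on the strand of the gene, and capitals mark the motif GAGGAA of PU.1, the myeloid transcription factor, on either strand (read as TTCCTC on the reverse).
C1qb, chr4:136886201-136886450, minus strand: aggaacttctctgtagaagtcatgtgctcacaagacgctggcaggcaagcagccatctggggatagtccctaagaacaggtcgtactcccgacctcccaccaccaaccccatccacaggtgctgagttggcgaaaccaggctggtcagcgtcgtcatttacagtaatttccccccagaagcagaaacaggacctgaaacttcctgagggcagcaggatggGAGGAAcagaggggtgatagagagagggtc
Itgam, chr7:128062390-128062639, plus strand: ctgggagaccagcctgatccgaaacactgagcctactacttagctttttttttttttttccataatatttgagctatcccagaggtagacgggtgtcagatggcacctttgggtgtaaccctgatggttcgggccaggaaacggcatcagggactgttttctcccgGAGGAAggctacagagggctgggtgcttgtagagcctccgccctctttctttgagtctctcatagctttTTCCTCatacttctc
C3, chr17:57228137-57228386, minus strand: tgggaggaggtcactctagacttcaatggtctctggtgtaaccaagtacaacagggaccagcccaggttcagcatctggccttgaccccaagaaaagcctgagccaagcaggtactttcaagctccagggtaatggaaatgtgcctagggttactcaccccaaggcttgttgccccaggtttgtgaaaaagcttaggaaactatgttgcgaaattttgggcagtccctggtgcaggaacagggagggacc

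GAGGAA was found 30 to 25 bases before the start of C1qb, at 84 to 79 and, reversed, 15 to 10 bases before that of Itgam, and reversed at 193 to 188 bases before that of C1qc. It was in 23.1% of 27025 promoter windows of that length. Of the interferon-type motifs, TTCNNNGAA was found in none of the 6 windows (7.18% of all windows held it) and GAAANNGAA only in that of C5ar1, reversed, at 66 to 58 bases before the start (7.16%). The motifs do not overlap one another in these windows. The starts are those of RefSeq, and the windows of C5ar1, C1qc and, by a few bases, C3ar1 reach into the genes as placed by GENCODE.

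The hippocampus libraries summed to 13952825 to 23856476 expected counts each, the meninges libraries to 6601143 to 14708202 and the mLEC libraries to 14231415 to 24207326. The mLEC libraries held 5998 to 9020 genes above 0, against 16371 to 18264 in hippocampus. Thy1 ran from 170.3 to 188.5 FPKM in WT hippocampus, from 407 to 622 in 5xFAD and from 434 to 522 in 5xFAD+L, so on this gene, whose promoter drives the transgenes, no hippocampus library went against its genotype label. In meninges Thy1 overlapped between WT (10.6 to 21.3) and both 5xFAD groups (18.7 to 23.9 untreated, 13.6 to 15.6 with light), and it overlapped in mLECs too, so it checks the genotype in hippocampus alone. Choroid plexus markers (Ttr, Folr1, Kl, Clic6, Kcne2 and Otx2) summed to between 15680 and 49290 FPKM in the meninges libraries, so the meninges held choroid plexus RNA in every group. In hippocampus the same sum ran from 36.3 to 2796 in WT, from 205 to 3189 in 5xFAD and from 63.0 to 244 in 5xFAD+L.

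In WT hippocampus the C1q chains stood far above the other members. C1qb was at 107 ± 10 FPKM (SD, n = 4), C1qa at 87.7 ± 4.99 and C1qc at 80.5 ± 5.38. C1qa and C1qc overlapped between libraries and C1qb lay above both. C4b followed at 9.68 ± 1.24, then Itgam at 5.2 ± 0.211 and Serping1 at 5.05 ± 1.22, which do not differ beyond their spread. C3ar1 (0.742 ± 0.126), C5ar1 (0.465 ± 0.141) and C3 (0.282 ± 0.207) were at the bottom, and each overlapped with the next. In WT meninges C1qb (376 ± 111), C1qa (322 ± 90.6), Serping1 (218 ± 78.6) and C1qc (213 ± 64.4) led, with overlapping ranges. C4b (11.3 ± 1.62) and C5ar1 (5.54 ± 3.80) came next, and C3ar1 (2.97 ± 0.797), C3 (1.98 ± 1.01) and Itgam (1.86 ± 0.668) were lowest, with overlapping ranges. FPKM is divided by transcript length, so it can be set between genes.

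Hippocampus and meninges were quantified in the same table, so their difference was tested in a joint fit. That fit took all libraries as independent, and whether the tissues came from the same mice is not known. In WT meninges against WT hippocampus 7 members were higher and 1 was lower, where 73.0% of 15132 tested genes passed in either direction. Serping1 had the largest difference of the 9, with 121 to 296 FPKM in meninges against 3.47 to 6.45 in hippocampus, a difference of 5.37 ± 0.38 on the log2 scale (SE; adjusted p = 1.9e-10, edgeR). The receptor C5ar1 (3.31 ± 0.47) and the central component C3 (3.26 ± 0.58) were higher as well. C3 ran from 0.08 to 0.57 FPKM in WT hippocampus. It reached the filter of 1 FPKM in 3 libraries only with meninges libraries, so its difference follows in part from the filter. C3ar1 (1.92 ± 0.27), C1qa (1.81 ± 0.30), C1qb (1.74 ± 0.29) and C1qc (1.34 ± 0.27) differed less. Itgam was lower in meninges by −1.55 ± 0.28. C4b differed by 0.18 ± 0.34 with a 95% interval from −0.53 to 0.89 (adjusted p = 0.646). A higher level in bulk tissue can be more cells of a type or more RNA per cell, and these cannot be told apart here or in any comparison below.

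Other complement genes differed between the tissues in the same fit, with 21 of 28 tested genes higher in WT meninges and 5 lower. Of all 15132 tested genes 73.0% passed in either direction. The proteases and starter proteins of the classical and lectin pathways and of the alternative loop were among the complement genes that differed. C1s1, a C1 protease, stood at 9.53 ± 4.18 FPKM in meninges (n = 4) against 0.112 ± 0.0866 in hippocampus. Cfb, factor B of the alternative pathway, stood at 12.9 ± 1.88 against 0.210 ± 0.159, and C2 at 14.4 ± 3.00 against 0.350 ± 0.0983. Of the 28 genes 18 reached the filter in hippocampus alone. The others, with C1s1, Cfb and C2 among them, reached it only with meninges libraries. Those genes had to be high in meninges to be tested, so the count of 21 follows in part from the filter. The genes lower in meninges were Csmd1, Csmd2, Csmd3 and Susd4, membrane regulators, and Masp1, a lectin pathway protease.

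All members that could be tested were higher in hippocampus of untreated 5xFAD mice than in WT mice, by between 1.8-fold and 7.8-fold. In the edgeR test 8 of 8 passed (6.48% of 12981 tested genes were higher and 8.54% passed in either direction), and no library of the 8 genes overlapped between the groups (8.75% of the tested genes stood that way). C3ar1 and C5ar1 reached the minimum level of 1 FPKM in 3 libraries only through 5xFAD libraries, and C3 did not reach it, so the 8 are not all members, and those receptors had to differ to be tested. Without that filter 9 of 9 members were higher, where 4.47% of 20292 genes were.

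The C1q chains rose together. C1qa was at 93.7, 83.3, 89.9 and 83.8 FPKM in WT, at 633, 365, 303 and 377 in 5xFAD and at 283, 209, 389.8 and 417 in 5xFAD+L. C1qb was at 113, 101.02, 118 and 96.5 in WT, at 789, 420.3, 349 and 468 in 5xFAD and at 348, 256, 473 and 472 in 5xFAD+L. C1qc was at 88.1, 75.6, 80.0 and 78.2 in WT, at 505, 301, 270.3 and 346 in 5xFAD and at 256, 190.5, 359 and 345 in 5xFAD+L. Every 5xFAD library, treated or not, stood above every WT library for the 3 genes, and the first 5xFAD library was the highest for each. Without that library all 8 tested members still passed against WT. The log2 fold changes against WT were 2.28 ± 0.26 for C1qa (adjusted p = 1.03e-04), 2.26 ± 0.26 for C1qb (1.22e-04) and 2.16 ± 0.23 for C1qc (6.48e-05).

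**Figure D1:**
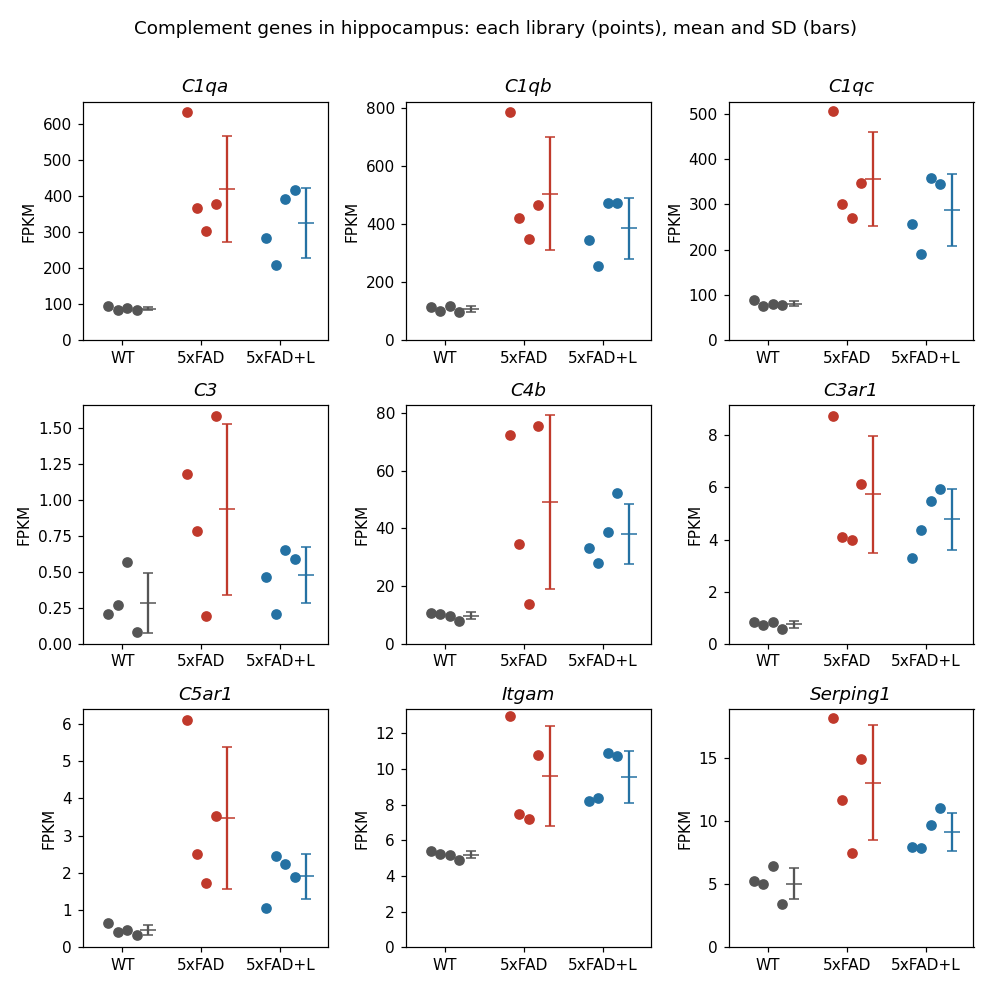
FPKM of the 9 complement genes in each hippocampus library (points) of WT, 5xFAD and 5xFAD+L mice, 4 a group, with the mean and SD as bars at the right of each group and a linear axis from 0 in each panel. In all panels except that of C3 both 5xFAD groups lie above the WT libraries, and the 5xFAD and 5xFAD+L points overlap.

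C4b, which encodes the fourth component, was at 10.8, 10.4, 9.47 and 8.03 FPKM in WT, at 72.4, 34.8, 13.7 and 75.7 in 5xFAD and at 33.1, 27.9, 38.7 and 52.2 in 5xFAD+L. The third 5xFAD library was the lowest of its group, and it still lay above the highest WT library. The fold change against WT was 2.36 ± 0.41 (adjusted p = 2.55e-03). The same library was lowest of its group for Gfap, the astrocyte marker, at 318 FPKM, where the group reached 2604. It was also lowest of its group for every other member and for Thy1 (407 FPKM), so this was not particular to C4b. C3, the component at which the pathways meet, was at 0.210, 0.270, 0.570 and 0.0800 in WT, at 1.18, 0.780, 0.190 and 1.58 in 5xFAD and at 0.460, 0.210, 0.650 and 0.590 in 5xFAD+L. The C3 groups overlapped. In the fit without a filter its log2 fold change was 2.14 ± 0.54 (adjusted p = 0.0272).

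The receptors rose by unequal amounts. C3ar1, the receptor of the C3a fragment, was at 0.850, 0.730, 0.820 and 0.570 FPKM in WT, at 8.75, 4.09, 3.98 and 6.15 in 5xFAD and at 3.30, 4.38, 5.50 and 5.93 in 5xFAD+L. C5ar1, the receptor of C5a, was at 0.660, 0.410, 0.460 and 0.33 in WT, at 6.12, 2.50, 1.74 and 3.52 in 5xFAD and at 1.07, 2.45, 2.23 and 1.90 in 5xFAD+L. Itgam was at 5.43, 5.25, 5.2 and 4.92 in WT, at 12.97, 7.47, 7.18 and 10.8 in 5xFAD and at 8.22, 8.35, 10.9 and 10.7 in 5xFAD+L. The fold changes against WT were 2.97 ± 0.29 for C3ar1 (adjusted p = 4.72e-05), 2.47 ± 0.38 for C5ar1 (9.93e-04) and 0.86 ± 0.18 for Itgam (8.63e-03). Itgam was the member with the smallest change, and it alone fell short of a 2-fold change. Serping1 was at 5.25, 5.03, 6.45 and 3.47 in WT, at 18.2, 11.7, 7.45 and 14.9 in 5xFAD and at 7.91, 7.85, 9.68 and 11 in 5xFAD+L. Its change was 1.39 ± 0.26 (adjusted p = 4.13e-03).

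Among the other complement genes 5 of 18 tested rose in 5xFAD hippocampus and 0 fell. Of all 12981 tested genes 6.48% were higher and 8.54% passed in either direction. Itgb2, the beta chain with which CD11b forms complement receptor 3, rose from 2.66 ± 0.291 FPKM to 12.2 ± 4.41 (n = 4 each), a log2 change of 2.17 ± 0.23. Itgax, the alpha chain of complement receptor 4, stood at 0.0350 ± 0.0370 in WT, near 0, and at 2.61 ± 0.840 in 5xFAD, and it reached the filter only through libraries of the 5xFAD groups, so it had to differ to be among the genes tested. Clu, the chaperone and terminal pathway inhibitor clusterin, rose by 0.64 ± 0.10 and Masp1 by 0.63 ± 0.15. Of the 9 membrane regulators tested 0 passed. The adjusted p-values of the 5 genes ran from 2.15e-05 to 0.0209.

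Microglial markers moved with the members. The 10 markers, among them P2ry12, Tmem119, Cx3cr1, Csf1r, Aif1 and Siglech, summed to 271 to 306 FPKM in WT, to 624 to 875 in 5xFAD and to 522 to 764 in 5xFAD+L. In the edgeR test 10 of 10 were higher in 5xFAD than in WT, where 6.48% of all tested genes were. Set against the mean log2 CPM of these markers, C1qa stood at 1.11 ± 0.051 in WT, at 2.06 ± 0.29 in 5xFAD and at 1.91 ± 0.20 in 5xFAD+L (SD, n = 4 each). C3ar1 stood at −3.69 ± 0.22, −2.10 ± 0.34 and −2.10 ± 0.19 on that scale. Itgam stood at −0.82 ± 0.029, −1.28 ± 0.20 and −0.998 ± 0.095. Serping1 stood at −2.25 ± 0.35, −2.20 ± 0.37 and −2.43 ± 0.082. Relative to the markers the means of C1qa and C3ar1 were thus higher in both 5xFAD groups than in WT, those of Itgam were lower, and Serping1 overlapped. These values describe the libraries and were not tested.

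**Figure D2:**
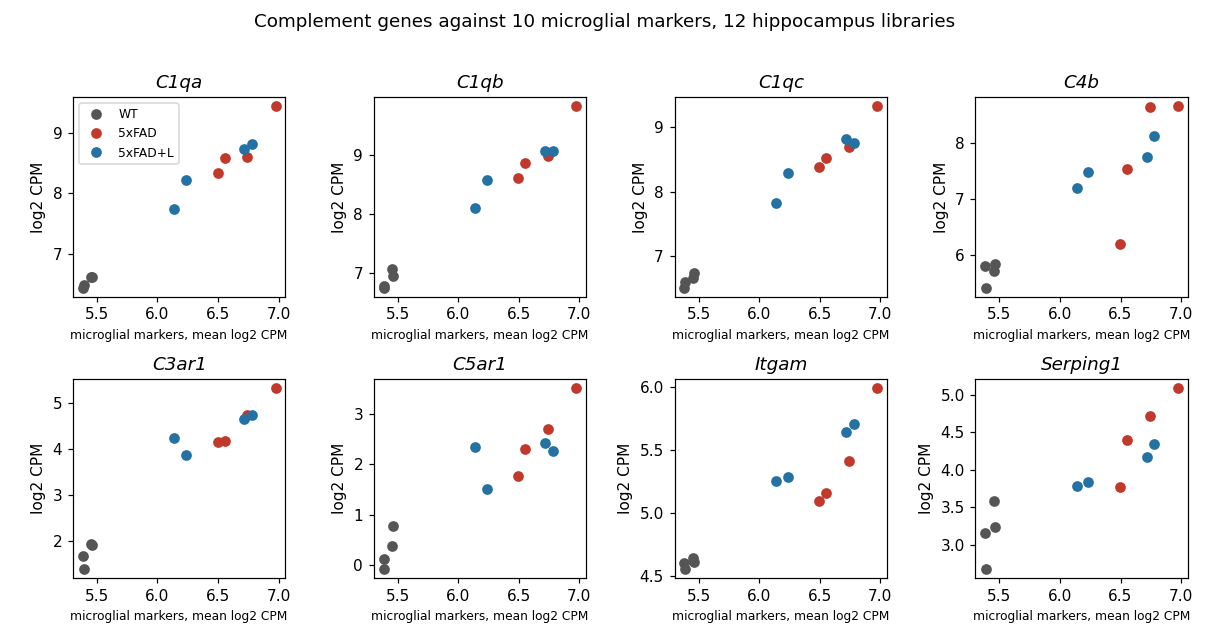
Log2 CPM of 8 complement genes (vertical) against the mean log2 CPM of the 10 microglial markers (horizontal) in the 12 hippocampus libraries, coloured by group. The WT libraries lie apart at the lower left, and the C1q chains follow the markers within the 5xFAD groups more closely than C4b and C5ar1 do.

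Other marker lists also differed between the hippocampus groups. Leptomeningeal fibroblast markers summed to 33.3 to 57.8 FPKM in WT, 37.2 to 131 in 5xFAD and 28.7 to 42.7 in 5xFAD+L, and 2 of 9 tested were higher in 5xFAD than in WT. Astrocyte markers were higher in 4 of 8. Of all tested genes 6.48% were higher. With the fibroblast markers as a covariate all 8 tested members still passed against WT, at changes from 1.15 (Itgam) to 3.27 (C3ar1), and with the choroid plexus markers from 0.79 (Itgam) to 2.88 (C3ar1). Border macrophage markers (6 genes, such as Mrc1 and Cd163) summed to 3.07 to 4.36 FPKM in WT and 6.15 to 14.8 in 5xFAD, and neutrophil markers (8 genes) to 0.740 to 1.76 and 3.68 to 9.37. Of these markers 1 and 2 reached the filter, and 1 of each list was higher in 5xFAD. Their part in the members' changes was not tested.

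After the mean of each group was removed, the C1q chains varied together across the 12 hippocampus libraries, with Pearson's r between 0.979 and 0.988. All come from the same table and scaling, and the values are a description. For C1qa the nearest of 12980 other genes were C1qc (0.988), C1qb (0.987) and Ctss (0.983), which encodes the lysosomal protease cathepsin S. For C1qb they included C1qa and Ctss (0.987). For C1qc they were C1qa, Ctss (0.984) and C1qb. Itgam had r of 0.908 to 0.936 with the C1q chains, whereas C4b had 0.670 to 0.713 with them and C5ar1 0.623 to 0.675. The nearest genes of Itgam were Pdlim4 (0.978), Arpc1b (0.976) and Ifnar2 (0.973). C4b was nearest to Dpf2 (0.979), Slc31a2 (0.965) and Hyls1 (0.954), with Serping1 the closest of the other members (0.867). For C3ar1 the nearest genes were Pdlim1 (0.962), Myo1e (0.961) and Endod1 (0.957), for C5ar1 Pros1 (0.949), Eln (0.938) and Nedd9 (0.936), and for Serping1 Slc25a45 (0.972), Plod1 (0.962) and Ptges3 (0.96).

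Light-treated and untreated 5xFAD hippocampus were compared to learn whether light moved the complement genes. No member passed, where 0.455% of 12981 tested genes did, and 0 of 8 had an unadjusted p under 0.05 in the edgeR test (18.3% of the tested genes did). DESeq2 called 0 as well, where it called 4.94% of the genes. Of the other 18 complement genes tested 0 passed, 6 had an unadjusted p under 0.05, and DESeq2 called 3. Of the 8 changes of the members 7 lay below 0 and the median was −0.37, against −0.02 over all tested genes (C3ar1 and Itgam turned above or below 0 when single libraries were left out). No member was separate between the groups (7.63% of the tested genes were).

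Serping1, with an unadjusted p of 0.0588, had the smallest p. Its log2 change was −0.52 ± 0.25 with a 95% interval from −1.07 to 0.02 (adjusted p = 0.288), a fold between 0.478 and 1.02. C5ar1 changed by −0.55 ± 0.35, with an interval from −1.30 to 0.20. C1qa changed by −0.37 ± 0.24 (−0.90 to 0.16), C1qb by −0.39 ± 0.25 (−0.93 to 0.15) and C1qc by −0.31 ± 0.22 (−0.78 to 0.17). As folds, the intervals of the C1q chains ran from 0.524 to 1.12. C4b changed by −0.38 ± 0.39 (−1.22 to 0.47) and C3ar1 by −0.27 ± 0.26 (−0.83 to 0.29). Itgam changed by 0.02 ± 0.18 (−0.36 to 0.41), the narrowest interval. C3, without the filter, changed by −0.95 ± 0.51 (adjusted p = 0.396).

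Several marker lists had changes below 0 in this comparison too. All 10 microglial markers had negative changes, with a median of −0.17, and 0 passed. All 9 fibroblast markers tested were negative (median −1.34) and all 6 choroid plexus markers (median −2.43), with 0 passing. All 8 astrocyte markers (median −0.25) and all 6 oligodendrocyte markers (median −0.12) were negative as well, with 0 passing. Of the 6 neuronal markers 3 were below and 3 above 0. Border macrophage markers summed to 6.15 to 14.8 FPKM in untreated and 2.17 to 5.54 in light-treated 5xFAD, and neutrophil markers to 3.68 to 9.37 and 0.250 to 3.64, so neither sum overlapped between the groups. These sums are small: 1 of 6 macrophage and 2 of 8 neutrophil markers reached the filter, and 0 passed. The part of the astrocyte, oligodendrocyte, macrophage and neutrophil markers in the members' changes was not tested. With the fibroblast markers as a covariate the changes of the members were larger on the negative side, −0.77 for C1qa, −0.86 for C1qb and −0.82 for Serping1, and that of Itgam became −0.29. With the choroid plexus markers as a covariate they were −0.21, −0.21 and −0.32, and 0.13 for Itgam. None passed in either fit.

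**Figure D3:**
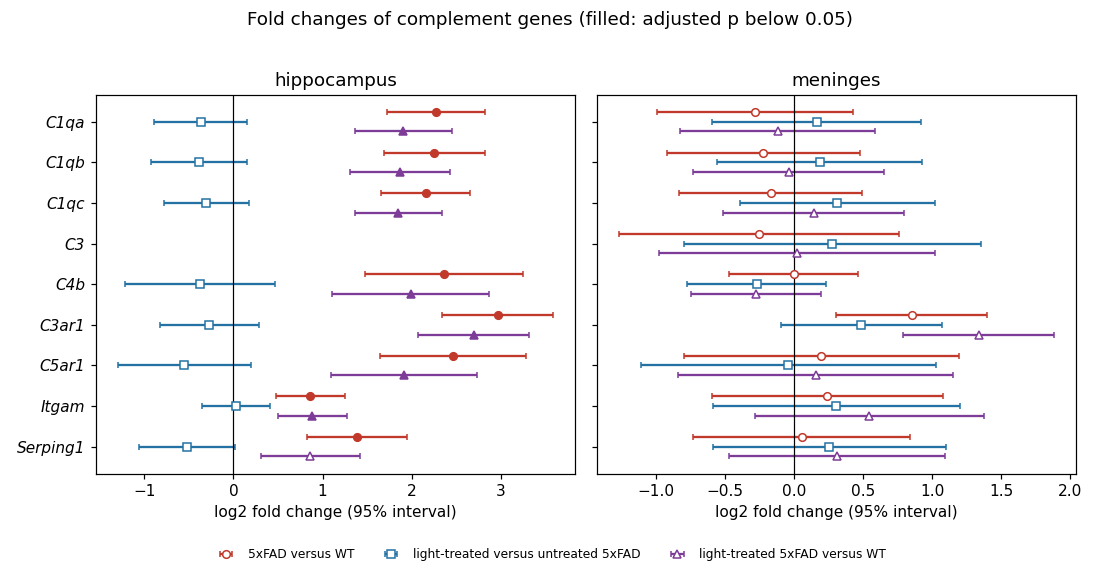
Log2 fold changes of the 9 complement genes with their 95% intervals in hippocampus (left) and meninges (right), for 5xFAD against WT (circles), light-treated against untreated 5xFAD (squares) and light-treated 5xFAD against WT (triangles). The horizontal scales differ, filled symbols mark an adjusted p below 0.05, and C3 in hippocampus has no value because it was below the filter.

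In light-treated 5xFAD mice against WT 7 of 8 tested members remained higher (3.05% of the tested genes were higher and 3.59% passed in either direction), and the libraries of all 8 did not overlap (7.33%). C3ar1 and C5ar1 reached the filter only through libraries of the 5xFAD groups. They had to differ from WT to be tested, so both counts follow in part from the filter. The changes were 1.91 ± 0.25 for C1qa, 1.87 ± 0.26 for C1qb, 1.85 ± 0.23 for C1qc, 1.99 ± 0.41 for C4b, 2.70 ± 0.29 for C3ar1, 1.91 ± 0.38 for C5ar1 and 0.89 ± 0.18 for Itgam. Serping1 was the exception, at 0.86 ± 0.26 (adjusted p = 0.0968). It passed in DESeq2 (adjusted p = 0.0235, where 6.73% of the genes passed) and when the 2 groups were fitted alone (0.0189). The passing members had adjusted p-values from 1.72e-04 to 0.0124. C4b lost the call without the fourth WT library (adjusted p = 0.0554), and C5ar1 lost it in limma on log2(FPKM + 1), a scale that understates changes of low genes, with a change of 0.97 (adjusted p = 0.0518). Of the 18 other complement genes tested 4 passed, all higher, among them Itgb2 by 1.93, Itgax by 6.22 and Clu by 0.46. The value of Itgax rests on WT libraries near 0, and Itgax too reached the filter only through libraries of the 5xFAD groups. This comparison and the one of untreated 5xFAD mice share the WT libraries.

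In meninges 0 of 9 members passed in any comparison by edgeR, where 0.0%, 0.014% and 0.014% of 14318 tested genes did for 5xFAD against WT, light-treated against untreated 5xFAD, and light-treated 5xFAD against WT. DESeq2 called 0, 0 and 1 member in the same order, where it called 0.0%, 0.552% and 3.05% of the genes. An unadjusted p under 0.05 was found for 1, 0 and 1 member and for 4.01%, 12.7% and 16.4% of the genes, so those counts of members are near the background. C1qa was at 324, 377, 193 and 393 FPKM in WT, at 238, 320.03 and 239 in 5xFAD and at 435, 257 and 195 in 5xFAD+L, and the groups overlapped. Its change in 5xFAD was −0.28 ± 0.33 with an interval from −1.0 to 0.43. C1qb changed by −0.22 ± 0.32 and C1qc by −0.17 ± 0.31. The median over the 9 members was −0.0049 in 5xFAD, against −0.0029 over all tested genes.

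C3ar1 was the member whose meningeal levels stood apart. It was at 3.15, 3.74, 3.13 and 1.85 FPKM in WT, at 4.57, 5.90 and 5.50 in 5xFAD and at 7.32, 6.75 and 8.25 in 5xFAD+L. Every 5xFAD library was above every WT library, and every 5xFAD+L library above every other. Of the tested genes 2.19% were separate and higher in 5xFAD against WT, 10.1% in light-treated against untreated 5xFAD and 6.99% in light-treated 5xFAD against WT. The changes were 0.85 ± 0.25 (unadjusted p = 5.13e-03, adjusted p = 0.987, edgeR), 0.49 ± 0.27 (adjusted p = 0.456) and 1.34 ± 0.25 (unadjusted p = 1.38e-04, adjusted p = 0.0854). The last passed in DESeq2 (adjusted p = 2.03e-03) and without the second WT library (adjusted p = 0.0296).

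**Figure D4:**
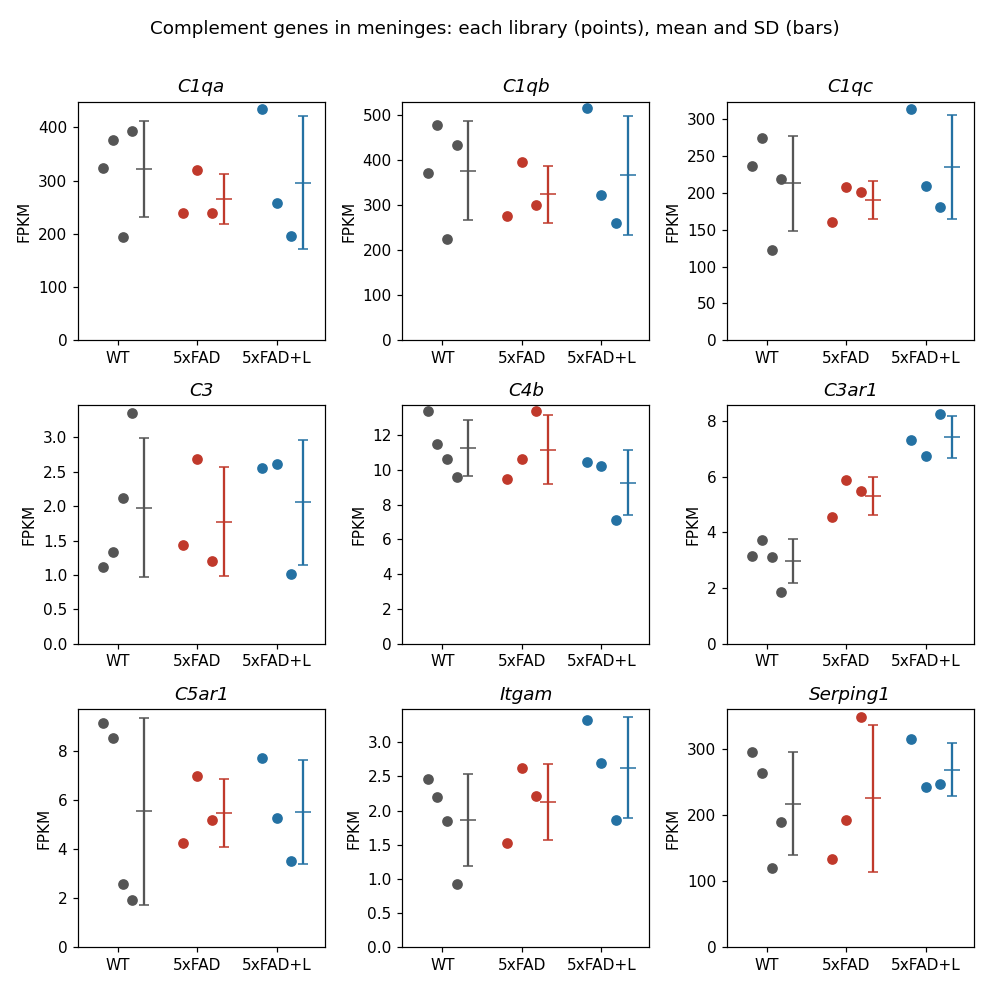
FPKM of the 9 complement genes in each meninges library (points) of WT (4), 5xFAD (3) and 5xFAD+L (3) mice, with the mean and SD as bars at the right of each group and a linear axis from 0 in each panel. The groups overlap in all panels except that of C3ar1, where the WT, 5xFAD and 5xFAD+L libraries follow each other without overlap.

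Myeloid and blood markers reached their highest sums in light-treated meninges, with wide spread between libraries. Neutrophil markers summed to 536 to 1568 FPKM in WT, to 622 to 3109 in 5xFAD and to 661 to 7560 in 5xFAD+L. Against WT 8 of 8 had a positive change with light and 8 of 8 without it, with 0 passing in either. S100a8, 1 of them, was at 4286 FPKM in the first 5xFAD+L library. In the other 5xFAD+L libraries it was at 350 and 429, and it ran from 292 to 811 in WT. Red blood cell markers (5 genes) summed to 5037 to 17540 in WT, 6474 to 18230 in 5xFAD and 6461 to 48540 in 5xFAD+L. Microglial markers summed to 174.5 to 309, 217 to 295 and 278 to 385, and border macrophage markers to 154.5 to 337, 274 to 298 and 229 to 567. Their part in the C3ar1 values was not tested. Against the mean of the microglial markers, C3ar1 stood at −1.54 ± 0.50 in WT (n = 4), −0.76 ± 0.17 in 5xFAD (n = 3) and −0.78 ± 0.28 in 5xFAD+L (n = 3).

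Serping1 was at 296, 265, 121 and 190.4 FPKM in WT meninges, at 134, 194 and 350 in 5xFAD and at 316, 244 and 248 in 5xFAD+L. Its change in 5xFAD was 0.05 ± 0.36 (−0.73 to 0.84) and with light 0.25 ± 0.39 (−0.59 to 1.10). C4b, at 7.11 to 13.4 FPKM over all 10 libraries, changed by −0.0049 ± 0.22 (−0.47 to 0.46) in 5xFAD, the narrowest interval of the 9. C5ar1 ran from 1.95 to 9.12 in WT alone. C3 and Itgam changed by −0.26 ± 0.47 and 0.24 ± 0.39. Of 24 other complement genes tested in meninges 0 passed in edgeR in the 3 comparisons. An unadjusted p under 0.05 was found for 1, 2 and 3 of them, against 4.01%, 12.7% and 16.4% of all tested genes. DESeq2 called 0, 0 and 2, where it called 0.0%, 0.552% and 3.05% of the genes.

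The difference of the 5xFAD effects, meninges minus hippocampus, was tested in the joint fit of the 22 libraries. It passed for 5 of 9 members, all below 0, where 1.67% of 15132 genes were below 0 and passed and 1.74% passed in either direction. The differences were −2.56 ± 0.43 for C1qa (adjusted p = 2.68e-03), −2.48 ± 0.43 for C1qb (3.04e-03), −2.33 ± 0.40 for C1qc (2.70e-03), −2.37 ± 0.51 for C4b (0.0172) and −2.12 ± 0.39 for C3ar1 (4.80e-03). In edgeR the C1q chains, C4b and C3ar1 thus had larger 5xFAD changes in hippocampus than in meninges. C5ar1 (−2.28 ± 0.65, adjusted p = 0.0821), C3 (−2.42 ± 0.80, 0.150), Serping1 (−1.32 ± 0.47, 0.194) and Itgam (−0.64 ± 0.41, 0.554) did not pass. C5ar1 passed in DESeq2 (adjusted p = 0.0225, where 3.4% of the genes passed). In limma on log2(FPKM + 1) C3ar1 (−1.21, adjusted p = 0.0567) and C4b (−1.98, 0.0609) did not pass, and C4b lost the call without the first 5xFAD meninges library as well (adjusted p = 0.0693). The median of the 9 was −2.33, against −0.11 over all tested genes, and Itgax was the 1 other complement gene of 28 that passed (3 in DESeq2). Itgax reached the filter only with hippocampus libraries of the 5xFAD groups, so a difference in this direction was built into its being tested. The levels of the C1q chains, C3, C3ar1, C5ar1 and Serping1 were higher in WT meninges than in WT hippocampus. That of Itgam was lower, and that of C4b did not pass (0.18 ± 0.34, adjusted p = 0.646, edgeR). The part of these levels in the differences was not tested.

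The light effect, meninges minus hippocampus, passed for 0 of 9 members in edgeR, where 1.05% of 15132 genes passed, and in DESeq2, where 4.86% did. Of the 9 members 0 had an unadjusted p under 0.05, against 19.8% of the genes. All 9 differences were above 0, from 0.07 (C4b) to 1.22 (C3), with a median of 0.55 against 0.06 over all tested genes. C4b turned below 0 in limma (−0.12) and with a replicate block (−0.030). Of the 28 other complement genes 0 passed, 11 had an unadjusted p under 0.05 and DESeq2 called 3.

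Sorted mLECs gave almost no complement counts, apart from Serping1. C1qa and C3 were at 0 in all 10 libraries. C1qb had 711 expected counts in the third WT library and 12 in the first 5xFAD library, and C1qc 1552 in the first WT library and 1 in the third 5xFAD+L library. Border macrophage markers (6 genes) summed to 0.0 to 45.6 FPKM in the WT, 0.0 to 15.0 in the 5xFAD and 0.0 to 2.47 in the 5xFAD+L libraries, and their part in these counts was not tested. C3ar1, C4b, C5ar1 and Itgam had at most 1 count in a library. A count of 0 allows up to 3 counts, which is 0.124 to 0.211 CPM at these depths, for counting error only. Serping1 had 415 counts in the third and 2 in the fourth WT library, 507 and 400 in 5xFAD replicates 1 and 2, and 428 and 1301 in 5xFAD+L replicates 1 and 2, with 0 in 4 of the 10.

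**Figure D5:**
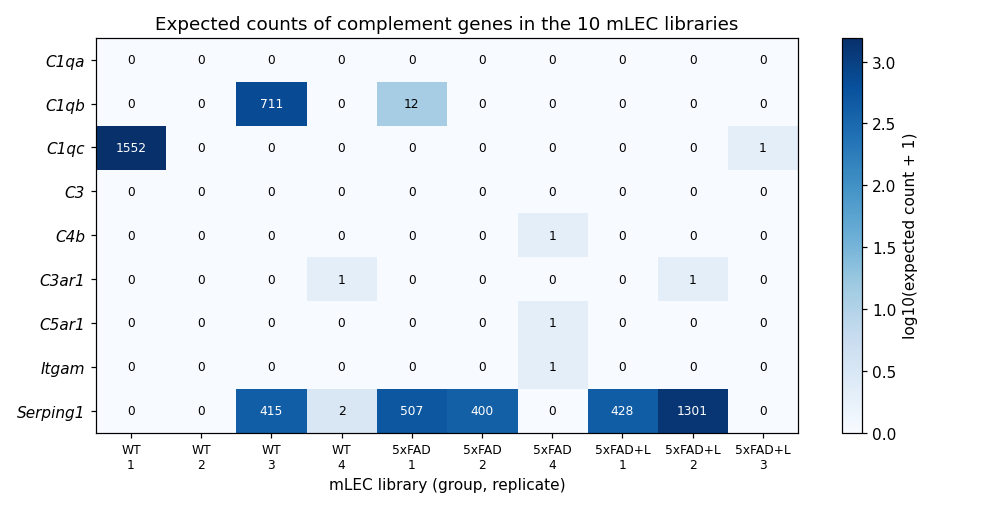
Expected counts of the 9 complement genes (rows) in the 10 mLEC libraries (columns, by group and replicate), shaded by log10(expected count + 1). Serping1 is the 1 gene with 400 or more counts in 5 libraries, and C1qb and C1qc have high counts in 1 library each.

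Serping1 alone reached the filter in mLECs, and 0 members passed, where 0.0%, 0.0% and 0.0122% of 8188 tested genes did for 5xFAD against WT, light-treated against untreated 5xFAD, and light-treated 5xFAD against WT. Its changes were 1.34 ± 3.23, 0.71 ± 3.49 and 2.05 ± 3.27 (adjusted p of 1.00 in each, edgeR), with unadjusted p-values of 0.686, 0.841 and 0.541, and DESeq2 called 0 members, where it called 2.26%, 4.36% and 5.67% of the genes. The 95% intervals ran from −6.79 at the lowest to 9.09 at the highest, so a difference was not detectable at this spread. The gate removed CD45+ cells, and Ptprc, which encodes CD45, was at 0 in all 10 libraries. Pecam1, the endothelial marker CD31, ran from 189 to 398 FPKM. Pdpn, which encodes the gate marker PDPN, ran from 0.0 to 26.7 FPKM in WT, 0.0 to 23.5 in 5xFAD and 0.04 to 77.6 in 5xFAD+L. It was at 0.0 in WT replicates 2 and 4 and in 5xFAD replicates 2 and 4. Lymphatic endothelial markers (7 genes) summed to 38.0 to 6736 FPKM in WT, 1156 to 4490 in 5xFAD and 3079 to 9718 in 5xFAD+L. Thus the sum was low in 1 or more WT libraries, but it rests mostly on Ccl21a, 1 of the 7. Ccl21a was at 6534 in WT replicate 1 and at 3.54 and 0.0 in WT replicates 2 and 4. Lyve1 was at 0.0 in both of the latter. Flt4, also of the 7, was at 34.4 and 30.3 in them and at 15.1 in WT replicate 1. Prox1 ran from 0.0 to 5.71 in WT and was highest in replicate 4. The markers of this list thus did not go together in the WT libraries. The mLEC table was quantified apart from the tissue table, so no test was made between mLECs and meninges. By level, Serping1 was at 0.0 to 30.0 FPKM in mLECs and at 121 to 350 in meninges.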

How the data were processed

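RNA-seq libraries of 32 samples were prepared with the Smart-seq2 protocol, per the study's methods. The authors deposited expected counts per gene, which are not normalized, and FPKM values, which are scaled by transcript length and library size. The study's methods name fastp and RSEM, whereas the submitters' processing notes name Trimmomatic, HISAT2, StringTie, DESeq2 and mm10, so which tools made the files is uncertain. Hippocampus and meninges share 1 table and mLECs have another.

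Here the rounded expected counts were analysed with the quasi-likelihood test of edgeR 4.0.16 (TMM scaling, R 4.3.3). A gene entered a fit when its FPKM was 1 or more in 3 or more samples: 12981 genes for hippocampus, 14318 for meninges, 8188 for mLECs and 15132 for the joint fit. Each fit of a tissue held its 3 groups. Benjamini-Hochberg adjustment covered all genes of a fit, and an adjusted p below 0.05 passed. Differences are log2 ± SE with 95% intervals, unless given as FPKM ± SD. DESeq2 1.42.0, limma 3.58.1, other scalings and filters, a replicate block, marker covariates and leaving out each library were alternatives. The scripts were tested on simulated data.

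The 9 members and all gene lists were chosen with earlier results of these data known. The rule for named genes took the members, up to 6 other complement genes a comparison with the largest changes among those passing, the marker lists, the 3 genes most like each member by Pearson's r of log2 CPM, and genes that share sequence with a member. The complement genes lower in WT meninges were named after their values were seen. Promoter sequences came from RefSeq and gene positions from GENCODE vM21, both on GRCm38, which is mm10. Some genes that this rule takes are not reported here.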

Additional observations from a re-analysis of the deposited data

Results flagged for a closer look

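In 4 of 40 groups of 4 libraries 1 library stood apart from the others of its group by Dixon's test. Chance flags about 1 in 20 groups of continuous values, but that rate does not apply to the C1qb, C1qc and C3ar1 groups, in which the other 3 libraries are at 0 and any single value above 0 stands apart. All 4 were WT mLEC groups. C1qb was at 40.3 FPKM in the third WT mLEC library and at 0.0 in the others, and C1qc at 59.2 in the first and at 0.0 in the others. Serping1 was at 14.5 in the third library, with 0.05 the next highest. C3ar1 was at 0.01 in the fourth, which is 1 count.

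The 5xFAD effect differed between meninges and hippocampus by an interaction term for 5 members. The log2 differences, meninges minus hippocampus, were −2.56 for C1qa, −2.48 for C1qb, −2.33 for C1qc, −2.12 for C3ar1 and −2.37 for C4b.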

How the results depend on the processing

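Of 729 values of single members under another setting 710 kept their direction and call, as did 673 of 725 with a library left out. In hippocampus of 5xFAD against WT 8 members passed whichever library was left out, 7 when a 2-fold change was also required, 6 with a filter at a mean FPKM of 5 (6 members tested) and 9 with no filter. Counts of members moved further in 3 comparisons. For light-treated 5xFAD against WT in meninges DESeq2 called 1 (0 to 1 with a library left out). For WT meninges against WT hippocampus the mean FPKM filter of 5 left 5 of 8, with fewer members tested. For the difference of the 5xFAD effects limma on log2(FPKM + 1) gave 3 of 5, losing C4b (adjusted p = 0.0609) and C3ar1 (0.0567), and leaving out a library gave 4 to 6. C5ar1 passed without the third 5xFAD hippocampus library (adjusted p = 0.0475) and without WT meninges replicate 3 (0.0442) or 4 (0.0421), and Serping1 without 5xFAD meninges replicate 4 (0.0392). The cause was not tested.

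Directions turned only among changes that did not pass. In hippocampus with light, Itgam was −0.29 with the fibroblast covariate, and with libraries left out C3ar1 ran from −0.41 to 0.030 and Itgam from −0.079 to 0.26. In meninges of 5xFAD against WT, C4b was 0.024 with the mean FPKM filter of 5, and with libraries left out C3 ran from −0.66 to 0.14, C4b from −0.16 to 0.11, C5ar1 from −0.058 to 0.59, Itgam from −0.013 to 0.44 and Serping1 from −0.42 to 0.33. In meninges with light, C5ar1 was 0.018 with no filter, and left-out libraries gave C1qa −0.29 to 0.36, C1qb −0.21 to 0.35, C1qc −0.021 to 0.44, C3 −0.0022 to 0.68, C5ar1 −0.49 to 0.18 and Serping1 −0.023 to 0.73. In light-treated 5xFAD against WT meninges, C3 was −0.0061 with median-of-ratios scaling and −0.0095 in DESeq2, and left-out libraries gave C1qa −0.58 to 0.073, C1qb −0.44 to 0.12, C1qc −0.20 to 0.28, C3 −0.26 to 0.40 and C5ar1 −0.30 to 0.55. Serping1 in mLECs with light ran from −0.46 to 1.29. For the difference of the light effects C4b was −0.12 and −0.15 in limma with pseudocounts of 1 and 0.1, and ran from −0.20 to 0.38 with libraries left out.

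The replicate number as a block gave 8, 0 and 7 members in hippocampus, 0 in each meninges and mLEC comparison and 8, 5 and 0 in the joint fit, the same counts as without it. With the block Serping1 was −0.22 in 5xFAD against WT meninges, C1qc −0.081 in light-treated 5xFAD against WT meninges and C4b −0.030 for the difference of the light effects. Same-numbered libraries of different groups within a tissue deviated with correlations from −0.31 to 0.244, not above 0.1 in every pair. The numbers were therefore not taken to pair the groups within a tissue. These correlations do not compare hippocampus with meninges libraries, and whether those came from the same mice is not known.

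Few animals (3 or 4 a group), a choroid plexus share in every meninges library and few genes detected in mLECs limit what these data can show. The choroid plexus covariate was chosen after seeing the data.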

Other observations

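The proportions of the C1q chains varied less in hippocampus than in meninges by their SD, with no test made. The ratio of C1qb to C1qa FPKM was 1.21 ± 0.0513 over 12 hippocampus libraries (SD) and 1.21 ± 0.0720 over 10 meninges libraries. The ratio of C1qc to C1qa was 0.889 ± 0.0463 in hippocampus and 0.727 ± 0.109 in meninges, where it ran from 0.556 to 0.925. In meninges it was 0.662 ± 0.0836 in WT (n = 4), 0.722 ± 0.106 in 5xFAD (n = 3) and 0.820 ± 0.101 in 5xFAD+L (n = 3), and these ranges overlapped.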
